A study of Sus scrofa with 6 samples.

Results

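The genes described here encode regulators of the Ras, Rap, Ral and Rab small GTPases, together with the RGS proteins that act on heterotrimeric G proteins. They were picked by symbol from the table of regions that differed in DNA methylation signal between 2 pig muscles. A gene was taken when its symbol began with RASGRP, RASGRF, RASA, SOS, RAPGEF, RAP1GAP, SIPA1, SYNGAP, RALGAP, RALGPS, RGL, TBC1D, RABGAP, RAB3GAP, DENND, RABGEF, RIN or RGS, and when the table placed a region in its promoter, an exon or an intron. The rule gave 43 genes of 3513 with such a region, and 90 differentially methylated regions (DMRs) of 15633. Another 3 genes of these families (DENND3, RAPGEFL1 and TBC1D9B) had regions downstream of the gene only and were left out.

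Methylated DNA immunoprecipitation sequencing (MeDIP-seq), in which an antibody to methylated cytosine enriches methylated fragments, was performed on *longissimus dorsi* (LDM), the fast, glycolytic muscle of the back, and *psoas major* (PMM), the more oxidative muscle of the loin. All 6 libraries came from untreated female Landrace pigs 210 days old, with 3 libraries per muscle. The source name of every sample reads *longissimus dorsi*, and the muscle was therefore taken from the sample title, which the tissue tag repeats. No label ties a library to a pig, although the study took both muscles from the same animals. The comparison was therefore unpaired and leaves out a pairing that existed. Its p-values set each difference against the spread between these libraries.

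Small GTPases are molecular switches that signal while bound to GTP. Exchange factors (GEFs) load them with GTP and GTPase-activating proteins (GAPs) end the signal by speeding the hydrolysis of GTP. Ras passes growth factor signals to kinases, Rap governs adhesion, Ral acts in exocytosis, and the many Rab proteins each direct a step of membrane traffic. In muscle, TBC1D4, a Rab GAP of the TBC1D family, is known for restraining the movement of the glucose transporter GLUT4 to the cell surface. RGS proteins speed GTP hydrolysis on the alpha subunits of heterotrimeric G proteins and so shorten signals from receptors.

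Each value below is the mean read depth per CpG of a DMR in 1 library, scaled by the authors to make libraries comparable. Depth rises with methylation and also with the number of CpGs nearby, so values are best compared within a DMR. In whole muscle, a change within cells and a different mix of cells cannot be told apart. Differences are PMM minus LDM on the log2(depth + 1) scale, and folds are taken from them, which understates changes in regions with little depth. The table lists only regions that the authors had selected for this contrast on these same libraries. Passing the test is therefore no independent evidence of a difference, and GTPase regulation is a theme the study itself drew from these samples.

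Across all listed DMRs, the median depth was between 26.2 and 28 in the LDM libraries and between 23.8 and 25.4 in the PMM libraries. Correlations of log2 depth ran from 0.951 to 0.959 between LDM libraries and from 0.935 to 0.957 between PMM libraries, against 0.39 to 0.639 between the muscles. These describe the listed DMRs, which had been selected to separate the muscles. Of the muscle fibre markers looked up, 1 of 9 genes had a listed DMR (ACTN2, lower in PMM), so the tissue label cannot be checked from this table. Markers of other cells had few DMRs, with 0 of 5 endothelial, 2 of 5 adipocyte, 3 of 5 leukocyte, 1 of 5 fibroblast and 1 of 5 nerve genes. The 5 leukocyte DMRs comprised 2 that were higher and 3 that were lower in PMM. The 3 adipocyte DMRs comprised 2 that were higher and 1 that was lower. A part of such cells in the results below was not tested.

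The regulators divided almost evenly between the muscles. PMM had the higher depth at 44 of their 90 DMRs and the lower depth at 46, and all 90 passed an adjusted p of 0.05 with limma, where 99.9% of all listed DMRs passed. At each of the 90 the highest library of one muscle lay under the lowest of the other, as at 100% of the listed DMRs. Over the whole list 55.9% of DMRs were called higher and 44% lower. The share higher among the regulators was 48.9%, beside 57.1% of all 5700 promoter and gene body DMRs with a symbol. Their median difference was −0.76, against 0.56 over all listed DMRs. Small differences were rare and rises and falls almost even, so the sign of this median turns on a few DMRs.

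Falls exceeded rises in size. DMRs higher in PMM changed by a median of 1.79-fold, with a range from 1.17 to 2.51, and those lower in PMM by a median of 2.65-fold, with a range from 1.66 to 9.21. Only 9 of the rises passed 2-fold, but 40 of the falls did. The medians over all listed DMRs were 1.80-fold and 2.61-fold, so the regulators had sizes close to those of the whole list. The median SE was 0.17 on the log2 scale. The 90 DMRs spanned 15.72 kb on 16 chromosomes with 720 CpGs, 5 to 20 in each, and their median length was 141 bp, against 134 bp for all listed DMRs.

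Direction varied with the role of the gene. The 5 DMRs of Rap GAP genes were all higher in PMM, as were 4 of 5 in Ral regulators and 9 of 14 in RGS genes. In Rab GAP genes, the largest family with 35 DMRs in 13 genes, 24 were lower and 11 were higher. The Rab exchange factors had 8 lower and 6 higher, the Ras exchange factors 4 lower and 3 higher, and the Rap exchange factors 4 lower and 5 higher. RASAL2, the single Ras GAP gene, had 1 DMR, which was higher. DMRs of 1 gene share their locus and these groups are small, so the counts are a description.

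**Figure D1:**
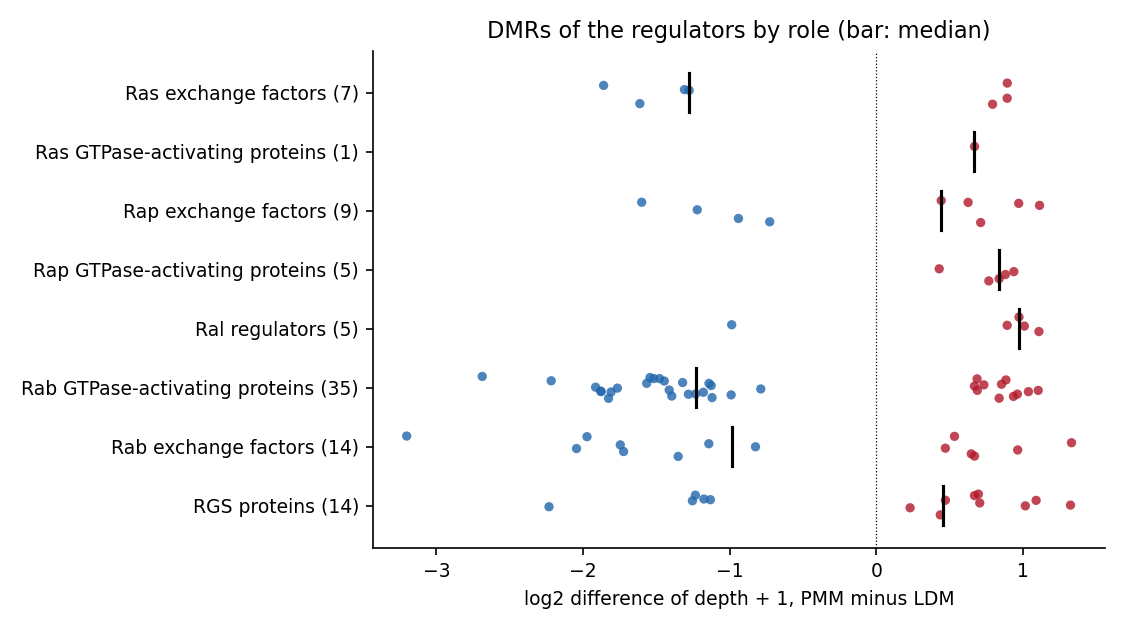
Difference in read depth between the muscles (log2(depth + 1), PMM minus LDM) for each of the 90 DMRs, by role of the gene. Each point is a DMR, red where higher in PMM and blue where lower, and the bar is the median of the role. The Rab GAP genes have a median of −1.23 and hold 24 of the 46 DMRs that were lower in PMM, and the falls reach −3.20 while no rise passes 1.33.

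Direction followed the density of CpGs in the DMR closely. The 44 DMRs higher in PMM had a median of 3.67 CpGs per 100 bp and the 46 lower ones a median of 7.59, against 4 and 7.63 over all listed DMRs. With the listed DMRs divided into 4 classes of equal size by density, 22 of the 22 regulator DMRs in the sparsest class were higher in PMM. In the next class 17 of 22 were higher, in the next 2 of 22, and in the densest 3 of 24. The corresponding shares higher over all listed DMRs were 93.9%, 76.1%, 37.1% and 16.7%, and the share among the regulators in the denser of the middle classes was 9.09%. The roles also differed in density, from a median of 3.37 CpGs per 100 bp in Rap GAP genes and 4.46 in RGS genes to 6.02 in Rab GAP genes and 7.59 in Ras exchange factors. Role and density therefore varied together in these DMRs.

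In each library the trend of depth with density over all listed DMRs was then subtracted, and the test was repeated. Of all listed DMRs 49.3% passed the threshold in limma, 21.3% as higher and 28% as lower. Among the 90 regulator DMRs 43 passed, 10 higher and 33 lower. Of these, 38 had the direction they had without the subtraction. A further 20 DMRs changed sign, and 5 of those passed in the new direction. DMRs that went against their density class kept their call. For these the subtracted trend ran the other way, so removing it enlarged each difference. Keeping the call was therefore close to fixed in advance and is no sign of robustness. RASGRF2, RGS20 and SIPA1L2 each had a DMR in the densest class that was higher in PMM, as did SIPA1L1 and RAB3GAP2 in the next class. In the sparser of the middle classes, DMRs of RAB3GAP2, TBC1D14, TBC1D2B and TBC1D22A (2 DMRs) were lower.

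**Figure D2:**
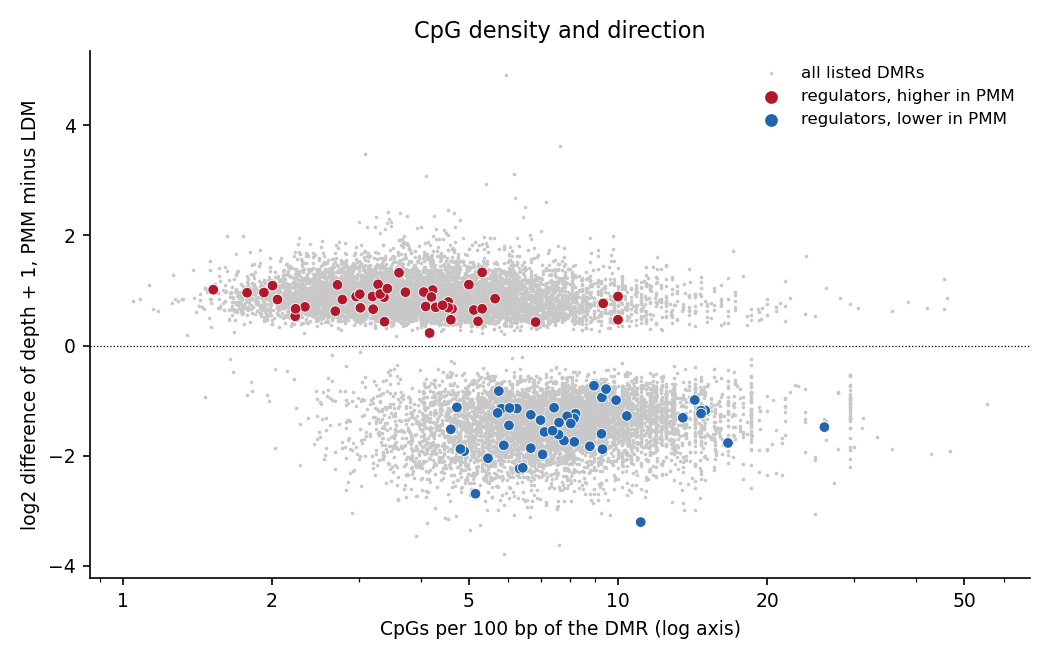
CpG density of each DMR (CpGs per 100 bp, log axis) against the difference in read depth (log2(depth + 1), PMM minus LDM). Coloured points are the 90 regulator DMRs and grey points are all listed DMRs. All 22 regulator DMRs of the sparsest class lie above 0, and 41 of the 46 in the denser classes lie below it.

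Among the Ras exchange factors, RASGRP2 had the largest fall. RASGRP2 is a calcium- and diacylglycerol-regulated exchange factor best known for activating Rap in platelets. In its internal intron (chr2:6567889-6567963, Sscrofa10.2) depth was 30.0, 25.9 and 25.9 in the LDM libraries and 15.8, 4.65 and 3.95 in the PMM libraries. PMM replicates 2 and 3 were far below the rest, and the difference was −1.86 (SE 0.41, limma adjusted p = 0.00138), a 3.63-fold fall. SOS2, which couples growth factor receptors to Ras through GRB2, fell 2.42-fold in an intron, from 68.2, 56.8 and 70.3 in LDM to 24.7, 27.4 and 26.4 in PMM, with little spread within either muscle.

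RASGRF2, a calcium- and calmodulin-responsive exchange factor, carried 3 DMRs over 104.61 kb that did not move together. An intronic one (chr2:91686791-91686935) went from 50.2, 35.1 and 53.2 in LDM to 16.1, 9.41 and 18.7 in PMM, a 3.06-fold fall. The exonic one (chr2:91654388-91654437) went the other way, from 21.2, 24.7 and 19.2 to 44.6, 38.6 and 39.7, a 1.86-fold rise. It lies in the densest class with 10.0 CpGs per 100 bp, where subtracting the density trend enlarges a rise. Its difference grew from 0.89 to 1.86 (limma adjusted p = 1.14e-05) with that trend subtracted. The remaining intronic DMR was 2.48-fold lower.

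The other members of this role rose. RASGRP1, a diacylglycerol-dependent Ras exchange factor of T cells, was 1.73-fold higher in an exon. RASGRP4, known from mast cells, was 1.86-fold higher in its promoter, described below with the other promoters. Of the 7 Ras exchange factor DMRs, the fall of RASGRP2, the 3.06-fold fall of RASGRF2 and the exonic rise of RASGRF2 were still past the threshold once the density trend was subtracted. RASAL2, a GAP that switches Ras off, had an intronic DMR with 37.0, 45.8 and 41.6 in LDM and 61.8, 68.4 and 68.0 in PMM, a 1.58-fold rise. Its call was lost with the density trend subtracted, where the difference was −0.24 (limma adjusted p = 0.133).

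Among the Rap regulators, the exchange factor genes RAPGEF1, RAPGEF2 and RAPGEF5 each had DMRs in both directions, whereas each DMR of the GAP genes rose. RAPGEF6, a PDZ-domain exchange factor for Rap, had the largest fall of the role, with 52.8, 41.5 and 52.2 in LDM and 24.2, 15.4 and 9.56 in PMM, or 3.03-fold. RAPGEF5 rose 2.16-fold in its last intron (chr9:100406333-100406515), from 25.0, 36.3 and 27.9 to 60.0, 74.6 and 60.3. A denser intronic DMR of the same gene fell 1.92-fold. RAPGEF2, a close relative of RAPGEF6, likewise rose 1.54-fold and fell 1.66-fold at different sites of its first intron.

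RAPGEF1 couples the adaptor CRK to Rap and had 4 intronic DMRs over 42.829 kb. The one with the lowest coordinate (chr1:305525177-305525316) fell from 22.2, 20.1 and 17.7 to 6.51, 9.16 and 8.44, which is 2.33-fold. The other 3 rose by 1.36-fold, 1.96-fold and 1.64-fold. The fall was the only 1 of the 9 DMRs of Rap exchange factors to pass in its own direction with the density trend subtracted (−1.10, limma adjusted p = 0.00149). The rise in RAPGEF2 passed as a fall there (−0.33, limma adjusted p = 0.0282).

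The Rap GAP genes were all of the SIPA1-like family. SIPA1L1, known as SPAR at neuronal synapses, had 3 DMRs, all higher in PMM. Its largest rise was 1.91-fold in an intron (chr7:101395627-101395777), from 8, 11.2 and 9.71 to 17.7, 21.6 and 18.5. The neighbouring intronic DMR rose 1.84-fold, from 26.5, 29.4 and 19.6 to 43.4, 47.7 and 48.5. The DMR in the first exon of SIPA1L1 rose 1.35-fold and that in an exon of SIPA1L2, on a CpG island shore, rose 1.70-fold. These exonic DMRs were the ones of the 5 that passed with the density trend subtracted, at 1.10 and 1.73. They lay in the denser classes, where the subtraction enlarged their rises. SIPA1L3 was 1.79-fold higher in its promoter.

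Ral regulators were higher at 4 of 5 DMRs. RGL1, a RalGDS-like exchange factor that binds active Ras, had the largest rise, 2.16-fold in its first intron (chr9:137397251-137397370), from 19.5, 22.1 and 17.1 to 38.0, 51.6 and 40.9. It was also the only one of the 5 to pass with the density trend subtracted (0.81, limma adjusted p = 0.0016). RALGPS1, a Ral exchange factor, was higher in its promoter and 2.01-fold higher in an intron, with 13.0, 10.4 and 15.1 in LDM and 26.5, 27.7 and 25.5 in PMM. RALGAPB, the subunit shared by the Ral GAP complexes, was the exception. Its intronic DMR, with 14.3 CpGs per 100 bp, fell 1.98-fold from 20.8, 17.1 and 17.8 to 11.1, 8.14 and 7.62.

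Rab GAP genes held 22 of the 40 falls over 2-fold. RAB3GAP2, the non-catalytic subunit of the complex that acts as a GAP for Rab3 and an exchange factor for Rab18, had the largest of the role. At an internal intron (chr10:11865689-11865785) depth was 47.8, 54.5 and 49.8 in the LDM libraries and 19.1, 1.16 and 10.8 in the PMM libraries. The difference was −2.69 (SE 0.66, limma adjusted p = 0.00266), a 6.44-fold fall, but the PMM libraries were widely spread. The fold was 3.35 without PMM replicate 2 and 10.22 without PMM replicate 1, and the call was lost in an unmoderated test (limma adjusted p = 0.0508). The depth was lower in PMM under every alternative run.

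TBC1D7 is a subunit of the TSC complex, which acts as a GAP on RHEB upstream of mTOR. Its intronic DMR (chr7:10034686-10034794) had 50.4, 52.1 and 40.2 in LDM and 17.3, 4.82 and 9.50 in PMM, or means of 47.6 ± 6.44 and 10.5 ± 6.31 (SD, n = 3). The fall of 4.65-fold (−2.22, SE 0.35, limma adjusted p = 0.000329) remained past the threshold with the density trend subtracted, at −1.71. RHEB itself, which is no regulator and was looked up separately, was 1.80-fold higher in an intron.

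TBC1D4, also called AS160, is the Akt substrate that restrains GLUT4 traffic in muscle. Its only DMR, in the last exon (chr11:52264143-52264288), was higher in PMM, with 14.2, 10.4 and 14.2 in LDM and 24.0, 28.4 and 29.9 in PMM. This 2.05-fold rise (1.04, SE 0.18, limma adjusted p = 0.000466) was not past the threshold with the density trend subtracted (0.17, adjusted p = 0.492). RABGAP1, a GAP linked to Rab6, showed the largest rise of the role at 2.15-fold in an intron, from 9.17, 12.6 and 11.9 to 25.6, 25.8 and 23.7.

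The remaining Rab GAP genes with a single DMR or a pair were TBC1D2, TBC1D5, TBC1D8B and TBC1D30. TBC1D2, a GAP for Rab7, was 2.79-fold lower in a stretch of 23 bp with 6 CpGs in its first intron. TBC1D5, which acts with retromer on Rab7, was 2.63-fold and 1.73-fold lower at intronic sites 160268 bp apart. TBC1D30, a GAP for Rab8, was 1.84-fold higher in an intron. With the density trend subtracted, 16 of the 35 DMRs of the role passed in their own direction, 15 of them lower in PMM. Over all listed DMRs 49.3% passed there in either direction. The 16 include the DMRs of RAB3GAP2, TBC1D14, TBC1D22A and TBC1D2B that went against their density class. The subtraction enlarged those differences, so their calls were close to fixed in advance.

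Among the Rab exchange factors, DENND5A held the largest difference of all 90 DMRs. DENND5A acts on Rab39 and binds Rab6. At a CpG island in an intron (chr9:405400-405453), a stretch of 54 bp with 6 CpGs, depth was 46.8, 30.7 and 39.9 in the LDM libraries and 13.5, 0.388 and 2.94 in the PMM libraries. The fall of 9.21-fold (−3.20, SE 0.68, limma adjusted p = 0.00117) rested strongly on the lowest library, being 5.23-fold without PMM replicate 2 and 16.9-fold without PMM replicate 1. It was 5.26-fold with a pseudocount of 4.

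RIN3, an exchange factor of the Rab5 family, fell 4.13-fold in its last exon (chr7:120770568-120770750), from 25.8, 23.9 and 31.3 to 13.5, 2.67 and 4.78. RABGEF1, or Rabex-5, which also acts on Rab5, fell 1.77-fold in an intron. The Rab35 exchange factor DENND1A was 2.55-fold and 3.36-fold lower at sites in its first intron. Its paralogue DENND1B fell 3.30-fold in the first intron, from 17.3, 13.3 and 15.3 to 7.79, 2.66 and 2.67. In the last intron, DENND1B had the largest rise of all 90 DMRs, 2.51-fold, from 3.60, 4.77 and 6.04 to 13.1, 14.0 and 13.1. Both DENND1B calls were kept with the density trend subtracted, at −0.83 and 1.21.

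DENND2A, an exchange factor for Rab9, was the only gene with 4 or more DMRs that moved one way, since all 4 of its intronic DMRs were higher in PMM. Its folds were 1.57, 1.45, 1.95 and 1.59 in the order of their coordinates. In the third of them (chr18:9770702-9771012) depth was 23.0, 23.1 and 16.7 in LDM and 44.8, 43.0 and 36.7 in PMM. With the density trend subtracted the first and the fourth were called higher, the second was called lower (−0.46, limma adjusted p = 0.018), and the third stood at −0.042.

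**Figure D3:**
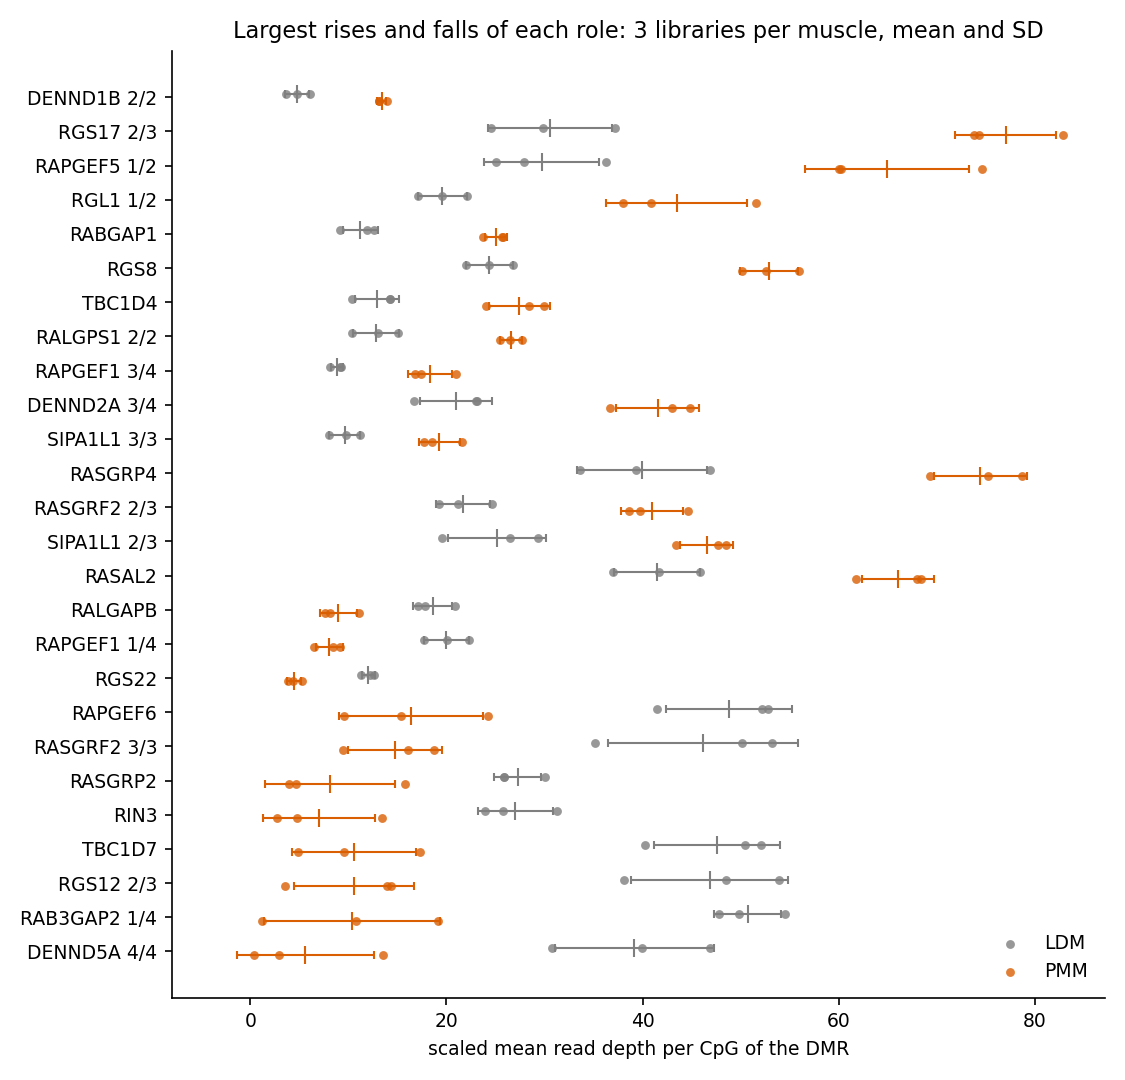
Read depth per CpG in each library for the DMRs with the largest rises and falls of each role (up to 2 of each). Grey points are the LDM libraries and orange points the PMM libraries, with the mean and SD of each muscle. The PMM libraries reach 0.388 in DENND5A and 1.16 in RAB3GAP2 and are widely spread in the large falls. Numbers after a symbol give the DMR in order of coordinates and how many the gene has.

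The RGS genes were higher at 9 of 14 DMRs. RGS17, which belongs to the RZ group with RGS20, had 3 intronic DMRs over 23.622 kb. The middle one (chr1:15673877-15674125) rose 2.50-fold, from 29.9, 37.2 and 24.6 in LDM to 74.3, 73.8 and 82.9 in PMM, and was the largest rise of the role. Another rose 2.02-fold, and the last, with 15.0 CpGs per 100 bp, fell 2.26-fold. RGS8, a neuronal member of the family, rose 2.13-fold in an intron from 26.8, 22.0 and 24.4 to 56.0, 52.6 and 50.1.

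RGS12, a large member that also binds Ras, fell at each of its 3 DMRs, and at no other RGS gene did more than 1 DMR fall. In an intron on a CpG island shore (chr8:1701434-1701591) depth was 53.9, 38.1 and 48.5 in LDM and 14.3, 3.49 and 13.9 in PMM. This 4.70-fold fall (−2.23, SE 0.42, limma adjusted p = 0.000624) was kept with the density trend subtracted, at −1.77. The other intronic site fell 2.35-fold and the promoter 2.19-fold. RGS22, a large member known from testis, was 2.39-fold lower in an intron, from 12.2, 12.6 and 11.3 to 5.25, 3.88 and 4.33.

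RGS10 rose 1.63-fold and 1.62-fold, and RGS7, the R7 member that works with Gβ5, rose 1.59-fold and 1.35-fold at sites 32 bp apart. RGS20 rose 1.39-fold at a site of 10.0 CpGs per 100 bp. Its difference grew from 0.47 to 1.44 with the density trend subtracted, which enlarges a rise at so dense a site. The smallest difference of all 90 DMRs was in RGS18, known from platelets. Depth there was 85.2, 87.5 and 86.9 in LDM and 106, 97.5 and 101 in PMM, a 1.17-fold rise (0.23, SE 0.07, limma adjusted p = 0.0124). Its call was lost without PMM replicate 1 (adjusted p = 0.0628), and with the density trend subtracted it passed as a fall (−0.47, adjusted p = 0.0098). With that trend subtracted, 5 of the 14 RGS DMRs passed in their own direction.

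Promoters held 8 of the 90 DMRs, and PMM was higher at 5 of them and lower at 3. The table classes promoters by CpG content as low (LCP), intermediate (ICP) or high (HCP). The 5 rises lay in sparse stretches of 1.78 to 3.19 CpGs per 100 bp. In RASGRP4 (ICP, chr6:42834086-42834398) depth rose 1.86-fold from 39.3, 46.8 and 33.6 to 69.3, 75.2 and 78.7. In RALGPS1 (ICP, chr1:301440746-301441049) it rose 1.86-fold from 34.6, 30.7 and 35.5 to 58.8, 70.4 and 60.5. Both lay in the intermediate part of the promoter. The SDs of their muscles were far smaller than the differences, in regions that had been selected for this contrast.

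The distal promoter of SIPA1L3 (ICP, on a shore, chr6:42646222-42646473) rose 1.79-fold from 18.6, 19.8 and 16.8 to 33.2, 34.7 and 32.8. That of TBC1D31 (ICP, chr4:17067053-17067350), a centrosomal member of its family, rose 1.61-fold with very little spread, from 56.2, 55.4 and 56.2 to 90.5, 89.2 and 92.3. TBC1D8 (LCP, chr3:55777088-55778208) had the longest DMR of the 90, 1121 bp with 20 CpGs from the proximal promoter into the first exon and intron. It rose 1.95-fold from 9.05, 9.07 and 6.42 to 17.9, 17.6 and 14.8. None of these 5 rises was past the threshold with the density trend subtracted, the differences lying between −0.24 and −0.01.

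Promoter falls were seen in TBC1D2B, TBC1D8B and RGS12. TBC1D2B (ICP, distal, chr7:53480453-53480600) fell 2.17-fold from 29.3, 39.1 and 31.1 to 18.2, 12.6 and 13.5. This DMR lay in the sparser of the middle density classes, where subtracting the density trend enlarges a fall. Its difference went from −1.12 to −1.56 (limma adjusted p = 0.000205) with that trend subtracted, so the kept call is no sign of robustness. TBC1D8B (ICP, chrX:101647643-101647753), where other transcripts place the same stretch in an intron or downstream, fell 1.99-fold from 34.0, 30.1 and 32.8 to 14.7, 13.6 and 19.5. Its difference was −0.02 with the density trend subtracted. RGS12 (HCP, distal, chr8:1730925-1731073) fell from 45.2, 41.9 and 50.3 to 28.1, 18.9 and 15.7 and was kept at −0.82.

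**Figure D4:**
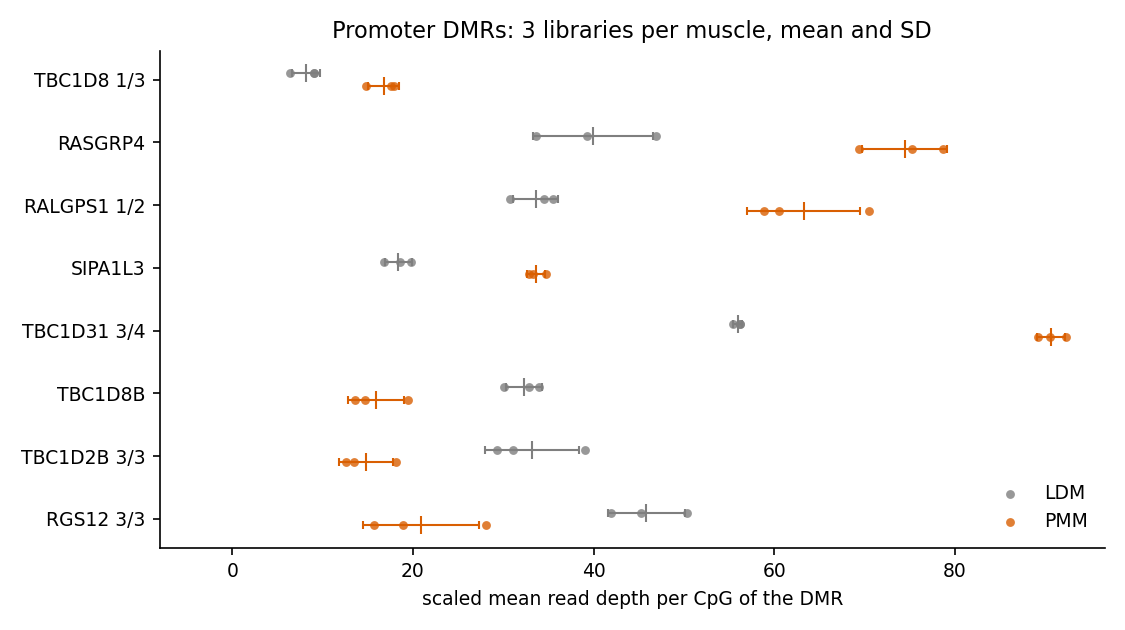
Read depth per CpG in each library for the 8 promoter DMRs of the regulators, with LDM in grey and PMM in orange and the mean and SD of each muscle. The PMM libraries lie above the LDM libraries in RASGRP4, RALGPS1, SIPA1L3, TBC1D31 and TBC1D8 and below them in TBC1D2B, TBC1D8B and RGS12. There is no overlap between muscles, as at 100% of the listed DMRs.

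Outside promoters, introns held 70 DMRs (32 higher, 38 lower) and exons 11 (7 higher, 4 lower). All 3 DMRs at CpG islands were lower in PMM, in TBC1D22A, TBC1D14 and DENND5A, and 10 of the 15 on shores were lower. Over all promoter and gene body DMRs with a symbol, 106 of 115 at islands and 284 of 551 on shores were lower. Last introns held 6 DMRs, of which 5 were higher. These were in DENND1B, RAPGEF5, RGS10 and RGS7, and the sixth, in RGS17, was lower.

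Within single genes the direction was often mixed. Of the 22 genes with more than 1 DMR, 13 (59.1%) had DMRs in both directions, and the share over all such genes in the table was 54.5%. Of 47 pairs of neighbouring DMRs of a gene, 27 (57.4%) moved the same way, against 60.4% of 2324 pairs in all genes. The widest gaps between a rise and a fall of 1 gene were 3.67 in DENND5A, 3.54 in RAB3GAP2 and 3.05 in DENND1B on the log2 scale.

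RAB3GAP2 had the closest pair of opposite DMRs. The intronic DMR at chr10:11891346-11891537 fell 2.207-fold, from 36.2, 28.1 and 29.9 in LDM to 14.3, 15.1 and 11.6 in PMM. Only 240 bp on, the DMR at chr10:11891778-11892078, which covers an exon and intron, rose 1.81-fold from 42.1, 38.5 and 43.4 to 72.3, 79.6 and 74.3. Their densities were alike at 6.25 and 5.65 CpGs per 100 bp, and both calls were kept with the density trend subtracted. The fall shrank there from −1.14 to −0.72. The rise went against its density class and grew from 0.85 to 0.93, so its kept call was close to fixed in advance. A small nucleolar RNA gene, SNORA36B, is annotated to the same DMRs.

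In DENND5A a shallow rise lay between falls. The exonic DMR at chr9:400727-400797 fell 3.93-fold, and the DMR 1811 bp further rose 1.39-fold, from 144, 143 and 137 to 189, 198 and 203, the deepest values among the 90. The 9.21-fold fall at the island followed after 2617 bp. With the density trend subtracted, the falls were kept and the rise stood at −0.039. TBC1D2B had another close pair in opposite directions, 802 bp apart, with a 2.43-fold fall and a 1.66-fold rise. Their densities differed, at 7.89 and 4.42 CpGs per 100 bp. With the density trend subtracted the fall was kept at −0.37 and the rise, at 0.14, was not.

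TBC1D22A had the most DMRs, 8 over 155.75 kb near the start of chromosome 5. In PMM 6 fell, by 2.92-fold, 3.68-fold, 3.50-fold, 2.18-fold, 3.67-fold and 2.86-fold in the order of their coordinates, and the remaining 2 rose by 1.59-fold and 1.61-fold. At the island DMR (chr5:209366-209569) depth was 87.4, 63.3 and 94.7 in the LDM libraries and 28.2, 14.0 and 28.0 in the PMM libraries. The falls lay at islands, on shores or just downstream of the gene, whereas the 2 rises lay outside them. Of the falls, 5 were kept with the density trend subtracted, and the rise of 1.59-fold passed there as a fall (−0.32, limma adjusted p = 0.0448). The falls of 3.67-fold and 2.86-fold lay in the sparser of the middle density classes, where the subtraction enlarged them.

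TBC1D14, which acts on Rab11 in autophagy, had 5 DMRs over 53.544 kb. The first rose 1.91-fold and the others fell 2.50-fold, 3.77-fold, 2.27-fold and 3.40-fold. The 3.77-fold fall (chr8:3348219-3348402) was from 36.9, 36.3 and 34.2 to 14.5, 3.62 and 11.9, and lay in the sparser of the middle density classes. TBC1D31 fell 2.73-fold and 2.35-fold at sites 1669 bp apart and rose in its promoter and 1.79-fold in its first intron. TBC1D8 fell 3.55-fold and 2.66-fold in an exon and an intron beyond the rise in its promoter.

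**Figure D5:**
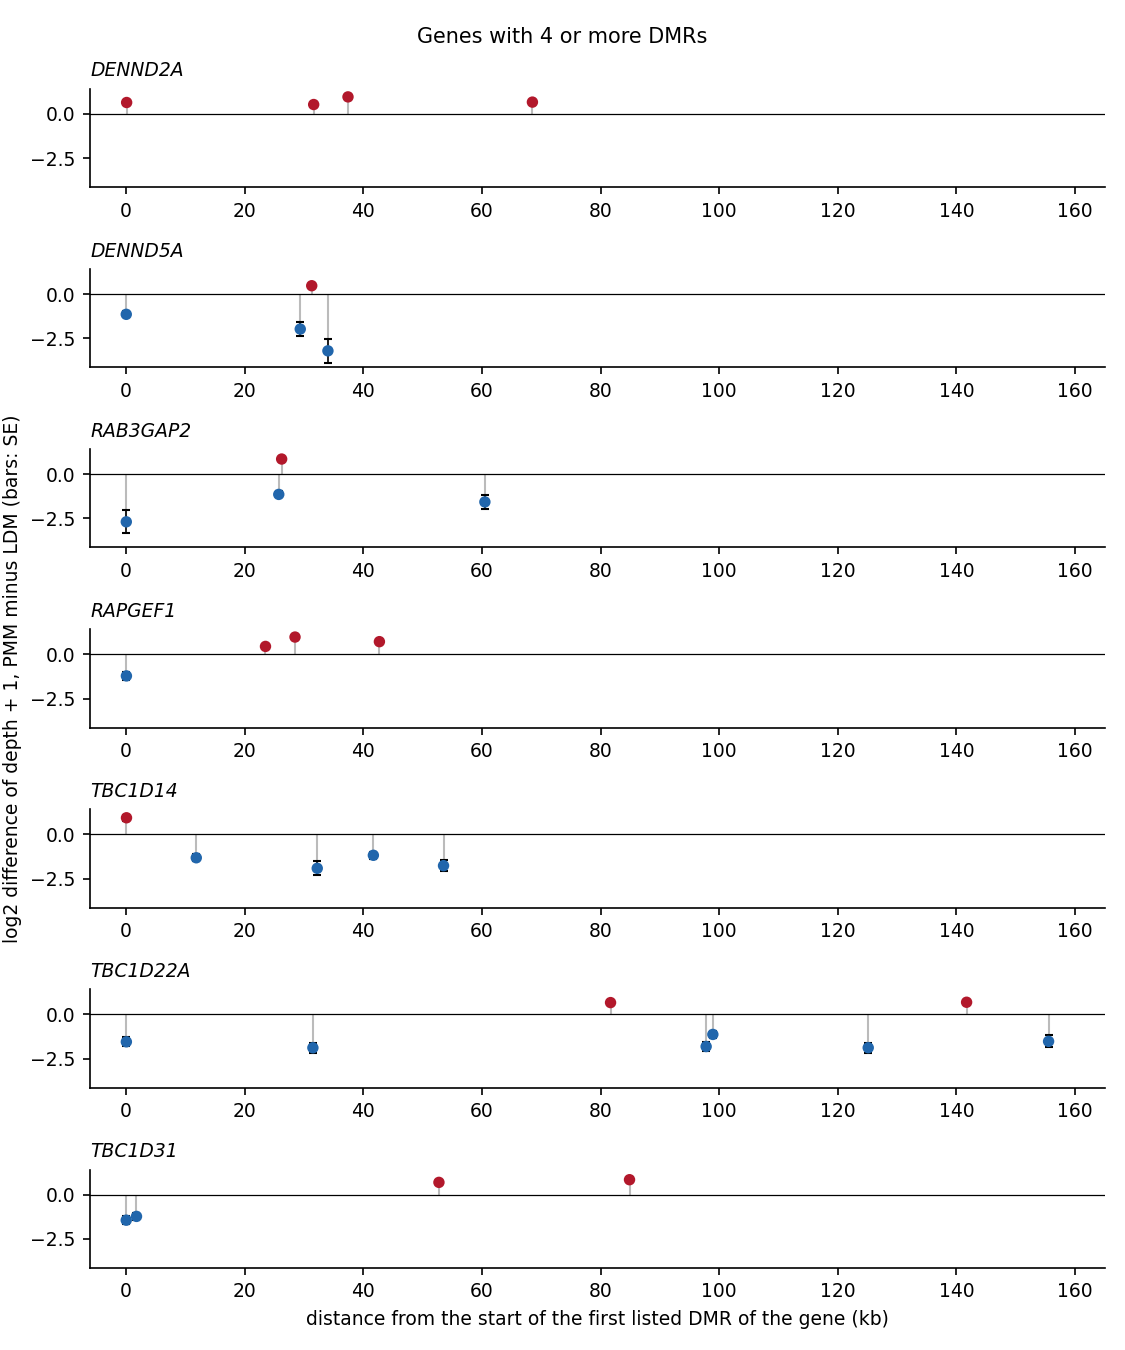
Difference in read depth (log2(depth + 1), PMM minus LDM) with its SE along the 7 regulator genes with 4 or more DMRs, against the distance in kb from the start of the first listed DMR of the gene. TBC1D22A has 6 falls and 2 rises, and all 4 DMRs of DENND2A lie above 0.

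The PMM libraries differed from each other more in the falls than in the rises. In the 46 DMRs that were lower in PMM, the median SD on the log2 scale was 0.44 among PMM libraries and 0.18 among LDM libraries, and in the 44 higher ones it was 0.09 and 0.15. Median depth in the PMM libraries was 8.43 to 14.8 in the falls and 55.0 to 58.1 in the rises. A part of this lower depth in the wider spread was not tested. PMM replicate 2 was the lowest library in 31 of the 46 falls (67.4%), replicate 3 in 12 and replicate 1 in 3. Over all listed DMRs that were lower in PMM, replicate 2 was the lowest in 57.0%, and the median SDs there were 0.37 among PMM and 0.16 among LDM libraries. Leaving replicate 2 out changed no call among the 90 DMRs, and the counts of calls over all listed DMRs also changed little. The listed DMRs had been selected on these same libraries, so the kept calls were close to fixed in advance.

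The GTPases and their partners, listed separately from the regulators, were divided as well. Of the GTPase and G protein alpha subunit genes looked up, 15 had 17 DMRs, 8 higher and 9 lower in PMM. All 17 passed the threshold in limma, where 99.9% of all listed DMRs passed. RAB3C, a vesicle-associated Rab3 isoform, had an intronic rise of 3.74-fold, from 2.89 ± 1.51 to 12.9 ± 2.59 (SD, n = 3). RAB11B of recycling endosomes fell 3.90-fold in an exon. RAB8B rose 1.83-fold in its promoter, and RAB23 rose 2.19-fold in its promoter and fell 2.13-fold in an intron. GNA14, a Gq-class alpha subunit, fell 3.41-fold and 3.38-fold in introns.

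Of 43 effectors and other regulators looked up, 11 had 15 DMRs, 8 higher and 7 lower. All passed, where 99.9% of all listed DMRs passed. EXOC2, the exocyst subunit that binds Ral, rose 1.80-fold and 1.90-fold in introns. DAB2IP, a Ras GAP outside the symbol rule, fell 2.97-fold in an intron. PLCE1, a phospholipase C activated by Ras and Rap, rose 2.23-fold and 1.47-fold, and RAB11FIP4, a Rab11 partner, rose at 1 DMR and fell at 2.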

How the data were processed

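The submitters' processing notes name the build Sscrofa10.2. By the methods of the study, the authors filtered reads for quality, aligned them with SOAP2, kept multiply mapped and duplicated reads once, dropped CpGs under a minimum depth, tested each CpG between the muscles and joined differing neighbours into DMRs. Deposited for each library is a coverage signal, which the authors computed as the scaled mean read depth per CpG of a DMR in each library. Multiplied by the number of CpGs they were whole multiples of a step per library (1.00, 1.04 and 1.08 in LDM and 1.21, 1.16 and 1.04 in PMM). A read over several CpGs counts several times, so no count model was used. The table does not give the total depth of a library, which limits what can be said of precision. The authors' muscle means, p-values and false discovery rates hold their own comparison and were not used.

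The table has 18176 rows, 1 per DMR and annotation, for 15633 DMRs. The human symbol was used, else the pig symbol, and 37 rows with symbols turned into dates were treated as having none. The test was that of limma 3.58.1, run in R 4.3.3 on log2(depth + 1) with moderated variances that follow a trend, the muscle as the only term and Benjamini-Hochberg adjustment over all 15633 DMRs at 0.05. The script was tested on simulated data. Positions count from 1 with both ends included. The density trend was a lowess curve (span 0.3) of log2(depth + 1) on log CpG density over all listed DMRs. It was fitted and subtracted in each library, the mean of the library was added back, and the test was repeated. Alternatives were pseudocounts of 0.25 and 4, a mean depth filter of 10, DMRs of at least 10 CpGs, median scaling, an unmoderated test, a constant prior variance, a replicate block and leaving out each library. No label ties the replicate numbers to pigs, and deviations of samples with the same number were only weakly correlated. The numbers were therefore not used to pair samples in the main test.

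The members, lists and tests were chosen with earlier results of these data known. Named were genes with a promoter DMR, the 2 largest rises and falls of each role, genes with 4 or more DMRs and the widest gaps between directions, and other members are given by fold. One further TBC1D gene and the values of 1 effector gene, which is in the counts, are not reported here. DMRs that carry a symbol beside the member's own (7 of 90) were kept.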

Additional observations from a re-analysis of the deposited data

How the results depend on the processing

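All 90 regulator DMRs kept their direction and their call with both pseudocounts, with median scaling (which shifted every difference by 0.15) and without PMM replicate 2 or 3 or any LDM library. So did the 87 with a mean depth of at least 10. Without PMM replicate 1 and with no variance trend RGS18 lost its call (limma adjusted p = 0.0628 and 0.0663), and in the unmoderated test RAB3GAP2 lost the call of its largest fall (adjusted p = 0.0508). Leaving out 1 library gave 43 to 44 regulator DMRs called higher and 46 to 46 called lower, and moved the fold by over 1.5 times in 2 DMRs, of DENND5A and RAB3GAP2. Among DMRs of at least 10 CpGs, 8 regulator DMRs were called higher and 15 lower, since fewer were tested. The same counts over all listed DMRs were not taken, so this split is a description only. With the density trend subtracted 10 regulator DMRs were called higher, in place of 44, and over all listed DMRs 3335 were called higher and 4376 lower, in place of 8743 and 6875. There 32 regulator DMRs lost their call in the same direction and 20 changed sign. Those that passed with the new sign were DENND2A at −0.46, RAPGEF2 at −0.33, RGS18 at −0.47, RGS7 at −0.44 and TBC1D22A at −0.32. The others, none of them past the threshold, were DENND2A at −0.042, DENND5A at −0.039, RALGPS1 at −0.039, RAPGEF1 at −0.011, RAPGEF2 at 0.24, RAPGEF5 at 0.026, RASAL2 at −0.24, RASGRP4 at −0.011, RGS10 at −0.28, RGS17 at −0.012, SIPA1L3 at −0.11, TBC1D31 at −0.24 and −0.16, TBC1D5 at 0.18 and TBC1D8 at −0.052. The subtraction removes any difference that goes with density, whatever its source, and the cause was not tested.

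With the replicate number as a block, 44 regulator DMRs were called higher and 46 lower, and no call changed. The counts of calls over all listed DMRs also changed little with this block. The correlations of deviations between libraries of the same number were 0.038, 0.241 and 0.018, and those between different numbers ran from −0.212 to 0.181. LDM replicates 1 and 2 correlated best with the PMM library of their own number, and LDM replicate 3 with PMM replicate 1. Correlations this weak, in DMRs selected to separate the muscles, cannot decide whether the numbers pair the samples. Low depth limits the largest folds: where PMM is near 0 the fold depends on the pseudocount, and the fall in DENND5A was 12.8-fold with 0.25 and 5.26-fold with 4.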

Other observations

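Many of the regulator DMRs lay near the low-coordinate ends of chromosomes. Of the 90, 24 (26.7%) lay within the first 7 Mb of a chromosome, against 9.82% of all listed DMRs. They included the 8 DMRs of TBC1D22A, the 5 of TBC1D14, the 4 of DENND5A, the 3 of RGS12, and others in RASGRP2, RGS18 and TBC1D5. Of these 24, 19 (79.2%) were lower in PMM, whereas 46.3% of all 1535 listed DMRs in such stretches were lower. Their median density was 6.50 CpGs per 100 bp, against 5.49 for the listed DMRs of these stretches. DMRs of 4 genes make up 20 of the 24, so the count rests on few loci, and the stretch was chosen after the positions were seen.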
